A study of Mus musculus with 11 samples.

Results

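T, B and NK cell genes are the transcripts by which the lymphocytes of a tissue are usually recognised: the receptor chains, signalling proteins, surface receptors and cytotoxic proteins of T cells, B cells and natural killer (NK) cells. A list of 38 such genes was followed through the livers of 11 male mice, whose total RNA was labelled with Cy3 and hybridised to Agilent 8x60K arrays, 1 mouse to an array. The list holds 15 T cell genes, 9 B cell genes, 13 NK and cytotoxic genes and Ptprc (CD45), which all leucocytes carry. The 38 genes stand among 20145 gene symbols that could be assigned to the array's probes through RefSeq accessions, and 49 probes belong to them: 27 genes had 1 probe and 11 had 2.

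The livers came from 4 WT mice, 3 β-catΔEx3 mice and 4 β-catΔEx3:Myc mice. All were of a mixed background, chiefly B6SJL with a small part of 129S6, and untreated. β-catΔEx3 is β-catenin that lacks the part encoded by exon 3, where phosphorylation marks the protein for breakdown, and β-catΔEx3:Myc livers carry c-Myc in addition. The promoter or Cre line that drives either allele is not given in the sources used here. The ages are given as 22 to 40 days, and singly for only 1 mouse of each group (31 days for WT replicate 4, 30 days for β-catΔEx3 replicate 3 and 29 days for β-catΔEx3:Myc replicate 4). The series' design describes the livers, WT included, as tumour-bearing, and does not say whether tumour or surrounding tissue was sampled. That every array is a separate mouse is all that is known of the replicates, and every p-value measures the spread between these mice.

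T cells recognise antigen through a receptor whose CD3 chains pass the signal to the kinases LCK and ZAP-70 and the adaptor LAT. B cells do so through an immunoglobulin paired with CD79A and CD79B. NK cells and cytotoxic T cells kill target cells with perforin and granzymes, and NK cells are held in check or released by receptors of the killer cell lectin-like family. The liver of a mouse normally holds many NK cells and other innate-like lymphocytes, resident Kupffer cells (macrophages) and fewer conventional T and B cells, and in young mice it is also leaving its fetal role as a site of blood formation.

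RefSeq promoter sequence (build GRCm38.p6) was at hand for 27 of the 38 genes, as 32 windows of the 200 bases before a transcript's start. Shown here are the windows of Cd3g and Cd3d, divergently arranged neighbours that both fell, of Gzma, the gene with the largest measured fold among those that fell, and of Nkg7, the one listed gene whose window holds the T-box letters. Capitals mark the letters of a Runx site (TGTGGT or, on the other strand, ACCACA), an E-box (CACCTG or CAGGTG) and a T-box site (AGGTGTGA or TCACACCT), which do not overlap in these windows, and each sequence runs 5′ to 3′ toward the gene.
Cd3g (chr9:44980432-44980631, minus strand): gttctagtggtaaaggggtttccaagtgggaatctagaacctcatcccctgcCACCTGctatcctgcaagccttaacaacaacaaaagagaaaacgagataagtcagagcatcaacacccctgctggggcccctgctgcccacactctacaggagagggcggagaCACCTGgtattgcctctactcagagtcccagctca
Cd3d (chr9:44981586-44981785, plus strand): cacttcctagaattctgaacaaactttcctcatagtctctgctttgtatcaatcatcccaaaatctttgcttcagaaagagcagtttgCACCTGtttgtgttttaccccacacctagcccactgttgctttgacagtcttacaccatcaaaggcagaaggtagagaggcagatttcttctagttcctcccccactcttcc
Gzma (chr13:113100982-113101181, minus strand): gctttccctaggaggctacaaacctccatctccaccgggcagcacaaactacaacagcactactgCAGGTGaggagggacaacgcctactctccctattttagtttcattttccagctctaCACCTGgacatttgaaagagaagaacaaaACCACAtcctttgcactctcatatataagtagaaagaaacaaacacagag
Nkg7 (chr7:43436938-43437137, plus strand): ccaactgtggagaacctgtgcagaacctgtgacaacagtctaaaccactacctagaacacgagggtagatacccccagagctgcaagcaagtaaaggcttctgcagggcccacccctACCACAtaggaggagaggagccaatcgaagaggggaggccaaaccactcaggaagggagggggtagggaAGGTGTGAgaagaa
The E-box letters were in 14 of the 32 windows (43.8%) against 13.9% of 32851 RefSeq mouse promoters of the same length, and the Runx letters in 10 (31.2%) against 11.2%. The T-box letters were in 1 window (3.12%) against 0.907%. The letters GGAA of an Ets site, which are not in capitals, were in 84.4% of the windows against 89.0% of all promoters. Some genes have several windows, a match is only a run of letters, and no binding was measured.

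Signal is given as log2 of the processed signal minus the 75th percentile of the array's log2 signals, so that 0 is the upper quartile of an array and every unit down is a halving. A probe was kept when the scanner software marked it well above background on at least 3 arrays, and 28 of the 38 genes had such a probe: 12 of 15 T cell genes, 6 of 9 B cell genes, 9 of 13 NK and cytotoxic genes, and Ptprc. With 4 WT arrays and a requirement of 3, a gene can pass on WT liver alone, and Cd2, Cd3g, Cd8b1, Gzmb, Il2rb, Klrd1, Ms4a1, Tbx21 and Xcl1 (9 genes) would not have passed on the 7 mutant arrays. For these genes a lower value in the mutants is in part built into the choice, and no count over the 28 is free of it. The 11 arrays had an upper-quartile signal of 227 to 354.3 scanner units, 49.02% to 53.43% of their spots exceeded background by the scanner's flag, and there were 0 saturated spots.

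The 10 genes without a kept probe were Cd247, Cd8a and Il7r of the T cell genes, Cd79a, Blk and Pax5 of the B cell genes, and Klrb1c, Klrk1, Ncr1 and Eomes of the NK genes. These encode the CD3 zeta chain, CD8 alpha, the interleukin-7 receptor, the partner of CD79B, a B cell kinase, the B cell lineage factor, the NK receptors NK1.1, NKG2D and NKp46, and an NK lineage factor. Blk, Cd247, Cd79a, Ncr1 and Pax5 were well above background on no array, and the other 5 on 1 or 2 arrays. So the defining genes of B cells and NK cells were in part below detection in WT liver too, and nothing can be said of their change.

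Most of the tested lymphocyte genes read lower in both mutant groups than in WT livers. Against WT, 17 of the 28 fell and 2 rose in β-catΔEx3 livers (limma, 2-sided, Benjamini-Hochberg adjusted p at 0.05 over 22282 genes and unnamed probes), where 37.1% of all items were called, 15.5% lower and 21.6% higher. In β-catΔEx3:Myc livers 17 fell and 3 rose, where 42.4% of all items were called, 17.1% lower and 25.3% higher. The 2 comparisons share the 4 WT arrays. The median log2 fold change of the 28 genes was -1.92 in β-catΔEx3 and -1.89 in β-catΔEx3:Myc, and -1.72 and -1.46 with genes at background throughout the mutant group set to their bound, beside 0.10 and 0.14 over all items. WT and mutant arrays did not overlap, with the mutants lower, for 18 genes in β-catΔEx3 (18.8% of all items) and 15 in β-catΔEx3:Myc (17.5%). The mutants were higher without overlap for 2 genes (24.8%) and 1 gene (24.9%). In bulk RNA, fewer cells of a type and less RNA per cell cannot be told apart.

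Among the genes that fell and could be measured in the mutants, the folds ran from 1.78 to 15.4 in β-catΔEx3 (10 genes) and from 1.97 to 8.33 in β-catΔEx3:Myc (12 genes). For the other 7 and 5 genes the probe was not well above background on any array of the mutant group, and the fold is given as a bound. It sets the WT mean against a mutant mean. In the latter, each array has the higher of the probe's own signal and the array's lowest signal well above background. WT arrays at background, as for Xcl1, Klrd1 and Cd8b1, kept their own signal. The bound is thus an estimate without an interval and not a guaranteed minimum, also where a fold is given as "at least". Log2 fold changes below are given with their standard error over 4 WT arrays and 3 β-catΔEx3 or 4 β-catΔEx3:Myc arrays. How far they depend on the background correction is seen with normexp, which adds an offset of 50: there the 17 folds had a median of 1.90 in β-catΔEx3 in place of 5.91, and of 1.82 in place of 4.88 in β-catΔEx3:Myc, all still lower.

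**Figure D1:**
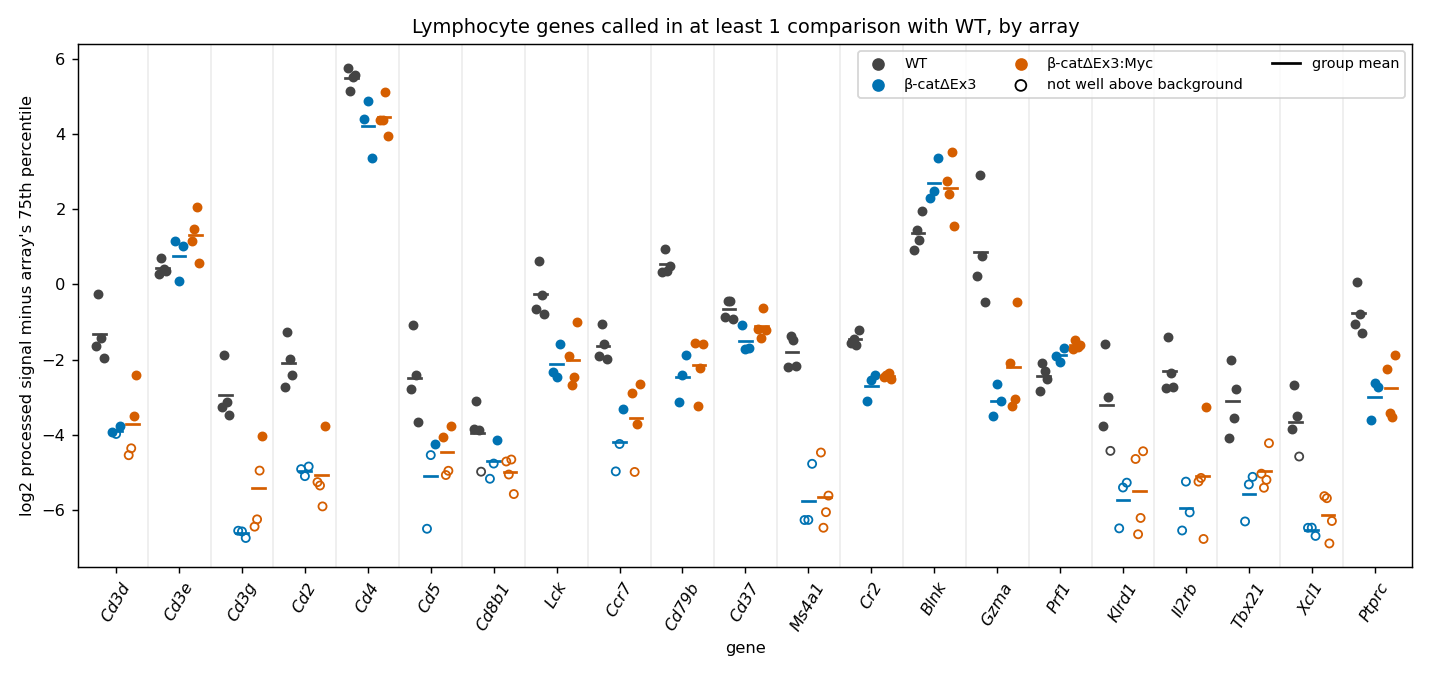
Scaled log2 signal (vertical axis, 0 at the array's 75th percentile) of the 21 lymphocyte genes called in at least 1 comparison with WT, with a point for each array, open where the probe was not well above background, and a bar at each group's mean. For most genes the WT points lie above those of both mutant groups; Cd3e, Blnk and Prf1 go the other way, and levels of different genes are not comparable on this axis.

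Slide is a batch here, and it is tied to genotype: WT replicates 1 to 3 were alone on slide 1, the first 2 replicates of each mutant genotype shared slide 2, and β-catΔEx3:Myc replicate 3 was alone on slide 3. The last replicate of each genotype was on slide 4. With slide as a fixed block, the WT comparisons rest on WT replicate 4 alone. The 17 genes lower in β-catΔEx3 then all kept a negative log2 fold change, with a median of -1.89 in place of -2.56, and Cd4, Cr2 and Xcl1 (3 genes) passed the test. Of the 17 lower in β-catΔEx3:Myc, 16 stayed negative, with a median of -1.15 in place of -2.29, and 1, Cd4, passed. The median standard error over the tested members grew from 0.47 and 0.43 to 0.69. Within slide 4, where 1 array of each group gives a value and no test, 17 and 16 genes were lower than in WT, by a median of -2.11 and -0.59. None of the higher calls (Blnk and Prf1 in both comparisons, Cd3e in β-catΔEx3:Myc) passed with the fixed block. With slide as a random block, 17 and 16 of these calls stood.

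**Figure D2:**
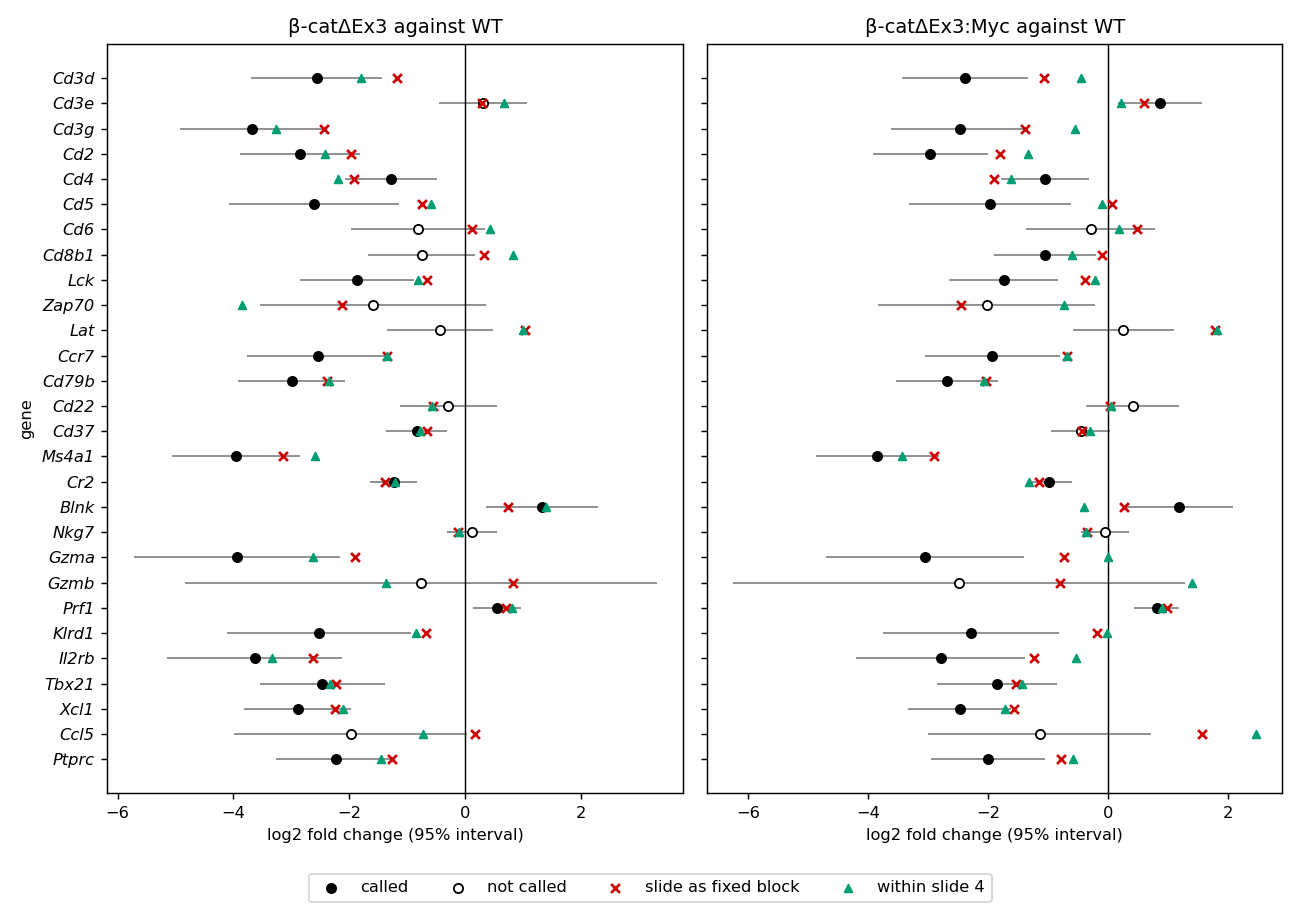
Log2 fold change against WT (horizontal axis) of the 28 tested lymphocyte genes, with the 95% interval of the fit; filled points passed the test, crosses are the values with slide as a fixed block and triangles the values within slide 4. In β-catΔEx3 the crosses and triangles of the genes that fell lie on the same side of 0 as the points, and in β-catΔEx3:Myc many lie nearer to 0.

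Of the CD3 chains, which carry the T cell receptor's signal, the gamma and delta chains fell and the epsilon chain did not. Cd3d read -1.62, -0.26, -1.43 and -1.96 in the WT livers, -3.92, -3.97 and -3.75 in the β-catΔEx3 livers and -4.54, -4.35, -3.50 and -2.41 in the β-catΔEx3:Myc livers. All mutant arrays lay below all WT arrays, and 2 of 3 β-catΔEx3 and 2 of 4 β-catΔEx3:Myc arrays measured the probe above background. The log2 fold change was -2.56 ± 0.51 (adjusted p = 0.0034) in β-catΔEx3 and -2.38 ± 0.47 (adjusted p = 0.00263) in β-catΔEx3:Myc. It was -1.18 and -1.06 with the slide block and -1.79 and -0.45 within slide 4.

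Cd3g was at -3.27, -1.88, -3.12 and -3.47 in WT, at -6.54, -6.56 and -6.73 in β-catΔEx3 and at -6.43, -6.24, -4.94 and -4.02 in β-catΔEx3:Myc. Every WT array measured it, no β-catΔEx3 array did, and 1 of 4 β-catΔEx3:Myc arrays did, the fourth. Cd3g was thus at least 4.28-fold lower in β-catΔEx3 (adjusted p = 0.000818), and its log2 fold change in β-catΔEx3:Myc was -2.48 ± 0.52 (adjusted p = 0.00346). The β-catΔEx3:Myc arrays were all above the β-catΔEx3 arrays for this gene, the single member for which the mutant groups did not overlap (3.9% of all items were higher in this way and 4.19% lower). That difference did not pass the test (adjusted p = 0.504), and 6 of the 7 mutant arrays were at background.

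Cd3e, the epsilon chain, read 0.28, 0.71, 0.41 and 0.36 in WT, 1.15, 0.10 and 1.03 in β-catΔEx3 and 1.16, 1.48, 2.05 and 0.57 in β-catΔEx3:Myc. The lowest β-catΔEx3 array lay under every WT array, and the lowest β-catΔEx3:Myc array lay inside the WT range. It rose in β-catΔEx3:Myc (0.87 ± 0.32, adjusted p = 0.0473) and was at 0.32 ± 0.34 in β-catΔEx3 (adjusted p = 0.501). Of the 11 single-array omissions, 8 ended the call (adjusted p from 0.0551 to 0.121; without WT replicate 1, 2, 3 or 4, β-catΔEx3:Myc replicate 1, 2 or 3, or β-catΔEx3 replicate 3). Scaling to the 75th percentile of probes detected on all arrays ended it too (adjusted p = 0.0882), as did the slide block (0.60, adjusted p = 0.509). The single Cd3e probe thus went against the Cd3d and Cd3g probes in the same livers.

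Of the 5 tested coreceptors and adhesion receptors of T cells, 3 fell in β-catΔEx3 and 4 in β-catΔEx3:Myc. Cd2, an adhesion receptor of T and NK cells, read -2.73, -1.27, -1.97 and -2.41 in WT, -4.91, -5.09 and -4.84 in β-catΔEx3 and -5.25, -5.34, -5.89 and -3.75 in β-catΔEx3:Myc. All mutant arrays were below all WT arrays, and of the mutants only β-catΔEx3:Myc replicate 4 measured it. Cd2 was at least 7.21-fold lower in β-catΔEx3 (adjusted p = 0.00124) and at -2.96 ± 0.43 in β-catΔEx3:Myc (adjusted p = 0.000492), with -1.80 under the slide block and -1.34 within slide 4. These values are of the used probe. A second Cd2 probe, printed on 10 spots, stayed between -6.69 and -4.17 and was above background on 1 array, a WT array.

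Cd5, a receptor that dampens T cell receptor signals, read -2.78, -1.08, -2.41 and -3.65 in WT, -6.49, -4.53 and -4.23 in β-catΔEx3 and -4.04, -5.06, -4.95 and -3.75 in β-catΔEx3:Myc. The groups did not overlap, though within slide 4 the β-catΔEx3:Myc array differed from WT replicate 4 by only -0.09, and 1 of 3 β-catΔEx3 and 2 of 4 β-catΔEx3:Myc arrays measured it. The log2 fold change was -2.60 ± 0.66 (adjusted p = 0.0116) and -1.97 ± 0.61 (adjusted p = 0.025). Without β-catΔEx3 replicate 1 the first was -1.90 (adjusted p = 0.0491). The second was no longer called without WT replicate 2 (-1.50, adjusted p = 0.0675), WT replicate 3 (-1.94, 0.0534), β-catΔEx3:Myc replicate 2 (-1.76, 0.0675) or replicate 3 (-1.80, 0.0642), and with the slide block it was 0.07.

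Cd8b1, the beta chain of the cytotoxic T cell coreceptor CD8, lay close to background in every group, at -3.84, -3.08, -3.86 and -4.97 in WT, -5.16, -4.76 and -4.14 in β-catΔEx3 and -4.70, -5.05, -4.65 and -5.57 in β-catΔEx3:Myc. Of these, 3 WT arrays, 1 β-catΔEx3 array and no β-catΔEx3:Myc array measured it, and the ranges overlap. It was called at least 1.49-fold lower in β-catΔEx3:Myc (adjusted p = 0.0475), a call that 8 single-array omissions ended (adjusted p from 0.0556 to 0.129; without WT replicate 1, 2 or 3, β-catΔEx3:Myc replicate 1, 2, 3 or 4, or β-catΔEx3 replicate 2), as did slide as a random block (adjusted p = 0.0759). In β-catΔEx3 it was at -0.75 ± 0.41 (adjusted p = 0.184). Cd6, a relative of CD5, was not called in either group (-0.81 ± 0.53, adjusted p = 0.251, and -0.28 ± 0.49, adjusted p = 0.67). Its lowest and highest values were -3.02 and -1.18 in WT, -4.26 and -2.18 in β-catΔEx3 and -3.13 and -2.08 in β-catΔEx3:Myc. A second Cd6 probe was above background on no array.

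Cd4, the coreceptor of helper T cells, was bright on its used probe, at 5.76, 5.14, 5.50 and 5.55 in WT, 4.40, 4.88 and 3.35 in β-catΔEx3 and 4.38, 4.36, 5.10 and 3.93 in β-catΔEx3:Myc. WT arrays were all above mutant arrays, with β-catΔEx3:Myc replicate 3 just under the lowest WT array. Cd4 fell by 1.28 ± 0.36 on the log2 scale in β-catΔEx3 (adjusted p = 0.0185) and by 1.05 ± 0.33 in β-catΔEx3:Myc (adjusted p = 0.0273). It is the one member that also passed under the slide block in both comparisons, at -1.92 (adjusted p = 0.0337) and -1.90 (adjusted p = 0.0339). Without β-catΔEx3 replicate 3 the first call was lost (-0.85, adjusted p = 0.0640). The second was lost in 6 omissions (adjusted p from 0.0555 to 0.0696; without WT replicate 1, 3 or 4, or β-catΔEx3:Myc replicate 1, 2 or 4). A second Cd4 probe, printed on 10 spots, stayed between -5.94 and -4.32 and was above background on 1 array, so the probes differ on whether the gene was detected.

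Among the kinases and adaptor behind the T cell receptor, Lck fell in both groups and Zap70 and Lat were not called. Lck, the kinase that starts T cell receptor signalling, read -0.64, 0.63, -0.28 and -0.77 in WT, -2.34, -2.45 and -1.59 in β-catΔEx3 and -1.90, -2.68, -2.45 and -0.99 in β-catΔEx3:Myc. It was above background on every array and the groups did not overlap, WT replicate 4 and β-catΔEx3:Myc replicate 4 lying nearest to each other. The log2 fold change was -1.86 ± 0.45 (adjusted p = 0.00853) and -1.74 ± 0.41 (adjusted p = 0.00657), and within slide 4 it was -0.81 and -0.22.

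Zap70, the next kinase in the chain, read 0.12, 2.48, 1.995 and 2.13 in WT, 0.47, 1.52 and -1.72 in β-catΔEx3 and -1.68, -0.45, -0.64 and 1.40 in β-catΔEx3:Myc. WT replicate 1 lay inside the range of both mutant groups. It was at -1.59 ± 0.88 in β-catΔEx3 (adjusted p = 0.183) and -2.02 ± 0.82 in β-catΔEx3:Myc (adjusted p = 0.0688), neither past the test, and its other probe gave -1.42 and -1.97. The β-catΔEx3 value was -2.31 without β-catΔEx3 replicate 2 and -0.69 without replicate 3, and the β-catΔEx3:Myc value passed without WT replicate 1, β-catΔEx3:Myc replicate 4 or β-catΔEx3 replicate 3. Lat, the adaptor, was at -0.43 ± 0.41 (adjusted p = 0.449) and 0.26 ± 0.38 (adjusted p = 0.616), with values between -4.36 and -2.54 over all arrays. Ccr7, the chemokine receptor that leads naive T cells and B cells to lymph nodes, read -1.90, -1.04, -1.59 and -1.97 in WT, -4.96, -4.24 and -3.32 in β-catΔEx3 and -2.88, -4.98, -3.72 and -2.65 in β-catΔEx3:Myc. All WT arrays were above all mutant arrays, 1 of 3 β-catΔEx3 and 3 of 4 β-catΔEx3:Myc arrays measured it, and it fell in both (-2.55 ± 0.55, adjusted p = 0.00508, and -1.93 ± 0.51, adjusted p = 0.0114).

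**Figure D3:**
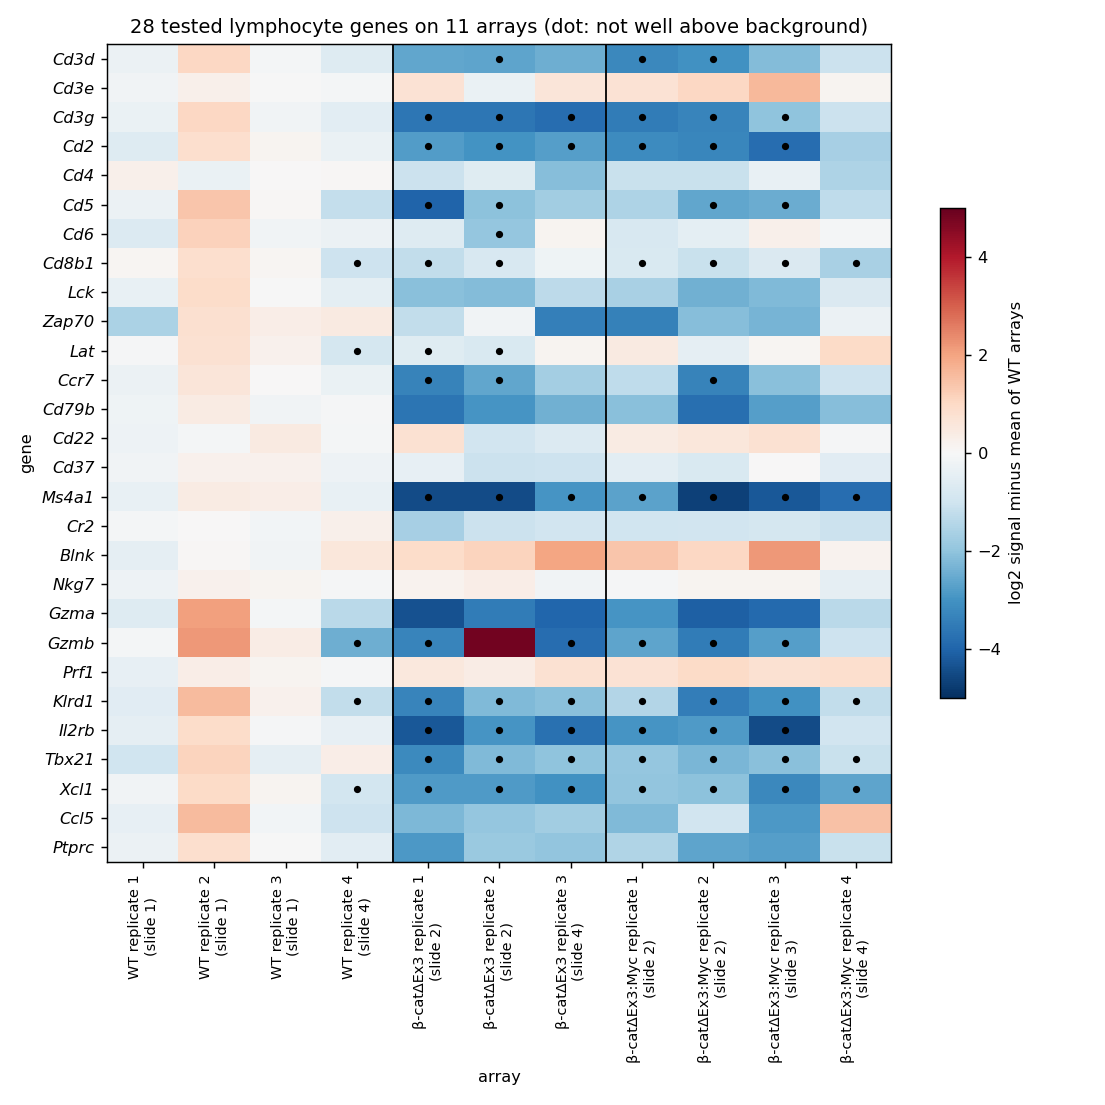
Log2 signal of the 28 tested lymphocyte genes (rows) on the 11 arrays (columns, with their slide), as the difference from the mean of the WT arrays; blue is lower, red is higher, and a dot marks a probe not well above background on that array. WT replicate 2 is the reddest WT column, β-catΔEx3:Myc replicate 4 is the palest mutant column, and Gzmb in β-catΔEx3 replicate 2 is the single dark red cell.

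Of the 5 tested receptor and surface genes of B cells, 4 fell in β-catΔEx3 and 3 in β-catΔEx3:Myc. Ms4a1 (CD20), a surface protein of mature B cells, read -2.19, -1.37, -1.47 and -2.17 in WT, -6.26, -6.25 and -4.76 in β-catΔEx3 and -4.46, -6.46, -6.05 and -5.61 in β-catΔEx3:Myc. All 4 WT arrays measured it and none of the 7 mutant arrays did. Ms4a1 was at least 9.06-fold lower in β-catΔEx3 (adjusted p = 0.000317) and at least 6.74-fold lower in β-catΔEx3:Myc (adjusted p = 0.000165), and under the slide block the adjusted p was 0.0723 and 0.0865.

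Cd79b, a signalling chain of the B cell receptor, read 0.32, 0.95, 0.37 and 0.49 in WT, -3.13, -2.40 and -1.87 in β-catΔEx3 and -1.56, -3.23, -2.22 and -1.58 in β-catΔEx3:Myc. It was above background on every array, and the lowest WT array lay well over the highest mutant array. The gene was 7.98-fold lower in β-catΔEx3 (-3.00 ± 0.41, adjusted p = 0.000523) and 6.41-fold lower in β-catΔEx3:Myc (-2.68 ± 0.38, adjusted p = 0.000429). Within slide 4 the values were -2.36 and -2.07, and with the slide block -2.38 (adjusted p = 0.0751) and -2.04 (adjusted p = 0.107).

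Cr2 (CD21), a complement receptor of mature B cells and follicular dendritic cells, had the smallest standard error among the genes that fell. It read -1.57, -1.45, -1.59 and -1.20 in WT, -3.10, -2.54 and -2.42 in β-catΔEx3 and -2.45, -2.41, -2.35 and -2.51 in β-catΔEx3:Myc, without overlap and above background on every array. It was 2.35-fold lower in β-catΔEx3 (-1.23 ± 0.18, adjusted p = 0.000722) and 1.97-fold lower in β-catΔEx3:Myc (-0.98 ± 0.17, adjusted p = 0.00125). With the slide block it was -1.38 (adjusted p = 0.0398) and -1.15 (adjusted p = 0.0617). These values are of the used probe. A second Cr2 probe stayed between -6.53 and -3.85 and was above background on 1 array, a WT array, so the probes differ on whether the gene was detected.

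Cd37, a tetraspanin of B cells and other leucocytes, read -0.85, -0.44, -0.43 and -0.92 in WT, -1.07, -1.72 and -1.69 in β-catΔEx3 and -1.18, -1.41, -0.63 and -1.22 in β-catΔEx3:Myc. The β-catΔEx3 arrays were all below WT, and the β-catΔEx3:Myc arrays overlapped with WT through replicate 3. It fell in β-catΔEx3 (-0.83 ± 0.24, adjusted p = 0.0198) and was at -0.45 ± 0.22 in β-catΔEx3:Myc (adjusted p = 0.126), a difference between the mutant groups that did not pass either (0.38, adjusted p = 0.653). The β-catΔEx3 call was lost without WT replicate 2 (-0.76, adjusted p = 0.0547), WT replicate 3 (-0.76, 0.0528), β-catΔEx3 replicate 2 (-0.72, 0.0645) or replicate 3 (-0.74, 0.0687). The other Cd37 probe, tested as its own item after the data had been seen, was called in neither group. It was at -1.23 ± 0.63 in β-catΔEx3 (adjusted p = 0.157), where no array measured it, and at -1.575 ± 0.59 in β-catΔEx3:Myc (adjusted p = 0.053). Cd22, a receptor that restrains B cell receptor signals, was not called in either (-0.29 ± 0.38, adjusted p = 0.582, and 0.41 ± 0.35, adjusted p = 0.372).

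Blnk, the adaptor that links the B cell receptor kinase SYK to its targets and is also found in myeloid cells, went the other way. It read 0.91, 1.44, 1.17 and 1.95 in WT, 2.29, 2.47 and 3.35 in β-catΔEx3 and 2.74, 2.42, 3.53 and 1.54 in β-catΔEx3:Myc. The β-catΔEx3 arrays were all above WT, while β-catΔEx3:Myc replicate 4 lay inside the WT range. Blnk rose 2.52-fold in β-catΔEx3 (1.34 ± 0.44, adjusted p = 0.0354) and 2.28-fold in β-catΔEx3:Myc (1.19 ± 0.41, adjusted p = 0.0368). The calls were lost with the detected-probe percentile (adjusted p = 0.0645 and 0.0656), and with the slide block (0.74, adjusted p = 0.486, and 0.26, adjusted p = 0.815), and within slide 4 the values were 1.41 and -0.40. Single omissions ended the first call 5 times (adjusted p from 0.0535 to 0.133; without WT replicate 1, 2 or 3, or β-catΔEx3 replicate 2 or 3) and the second 6 times (0.0615 to 0.0951; without WT replicate 1, 2 or 3, or β-catΔEx3:Myc replicate 1, 2 or 3).

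Of the 4 cytotoxic granule genes, 1 fell and 1 rose in each comparison. Gzma (granzyme A), a granule protease of NK and cytotoxic T cells, read 0.23, 2.92, 0.76 and -0.48 in WT, -3.49, -2.65 and -3.10 in β-catΔEx3 and -2.08, -3.22, -3.03 and -0.47 in β-catΔEx3:Myc. WT replicate 2 was far above the other WT arrays, the β-catΔEx3 arrays were all below WT, and β-catΔEx3:Myc replicate 4 lay 0.003 above WT replicate 4, with which it shares a slide. Gzma fell 15.4-fold in β-catΔEx3 (-3.94 ± 0.81, adjusted p = 0.00386) and 8.33-fold in β-catΔEx3:Myc (-3.06 ± 0.75, adjusted p = 0.00768). Without WT replicate 2 the values were -3.25 (adjusted p = 0.00612) and -2.37 (adjusted p = 0.0147), and with the slide block -1.89 and -0.73.

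Prf1, perforin, which opens pores in target cells, rose. It read -2.83, -2.09, -2.30 and -2.50 in WT, -1.89, -2.06 and -1.69 in β-catΔEx3 and -1.70, -1.48, -1.66 and -1.60 in β-catΔEx3:Myc, so that all mutant arrays lay above all WT arrays. It was 1.47-fold higher in β-catΔEx3 (0.55 ± 0.18, adjusted p = 0.0373) and 1.76-fold higher in β-catΔEx3:Myc (0.82 ± 0.17, adjusted p = 0.0034). The β-catΔEx3 call was lost with the detected-probe percentile (0.37, adjusted p = 0.174) and in 5 omissions (adjusted p from 0.0538 to 0.120; without WT replicate 1, 3 or 4, or β-catΔEx3 replicate 1 or 3). The β-catΔEx3:Myc call stood in each of these settings. With the slide block neither passed (0.71, adjusted p = 0.227, and 0.99, adjusted p = 0.113).

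Gzmb (granzyme B) was not called, and 1 array decides its mean. It read -2.45, -0.17, -1.99 and -4.78 in WT, -5.66, 2.47 and -6.14 in β-catΔEx3 and -4.98, -5.84, -5.12 and -3.38 in β-catΔEx3:Myc. β-catΔEx3 replicate 2 is the highest of all 11 arrays, while the other 2 β-catΔEx3 arrays are at background, and so are WT replicate 4 and 3 of the 4 β-catΔEx3:Myc arrays. The log2 fold change was -0.76 ± 1.84 (adjusted p = 0.777) in β-catΔEx3, and without that array it was -3.55 and passed. In β-catΔEx3:Myc it was -2.48 ± 1.71 (adjusted p = 0.269), and the same value passed once that array no longer widened the shared estimate of the spread.

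Nkg7, a granule membrane protein of NK and cytotoxic T cells, has probes that disagree. The brighter probe, used here, read 1.98, 2.42, 2.34 and 2.15 in WT, 2.41, 2.57 and 2.05 in β-catΔEx3 and 2.18, 2.36, 2.37 and 1.79 in β-catΔEx3:Myc, overlapping throughout, at 0.12 ± 0.20 against WT in β-catΔEx3 (adjusted p = 0.668) and -0.05 ± 0.18 in β-catΔEx3:Myc (adjusted p = 0.855). The other probe read -2.54, -0.81, -2.54 and -3.44 in WT, -6.58, -5.77 and -5.72 in β-catΔEx3, and -4.59, -4.87, -6.67 and -3.15 in β-catΔEx3:Myc, and was at background on 6 of the 7 mutant arrays. Tested as its own item, a test added after the data had been seen, it was lower in both groups (-3.69, adjusted p = 0.00429, and -2.49, adjusted p = 0.0170). This probe would not have passed the filter on the mutant arrays alone, so its lower mutant value is in part built into the choice. As for Gzma and Il2rb, WT replicate 2 was its highest WT array and β-catΔEx3:Myc replicate 4 its highest mutant array. Which probe follows the Nkg7 transcript was not tested.

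**Figure D4:**
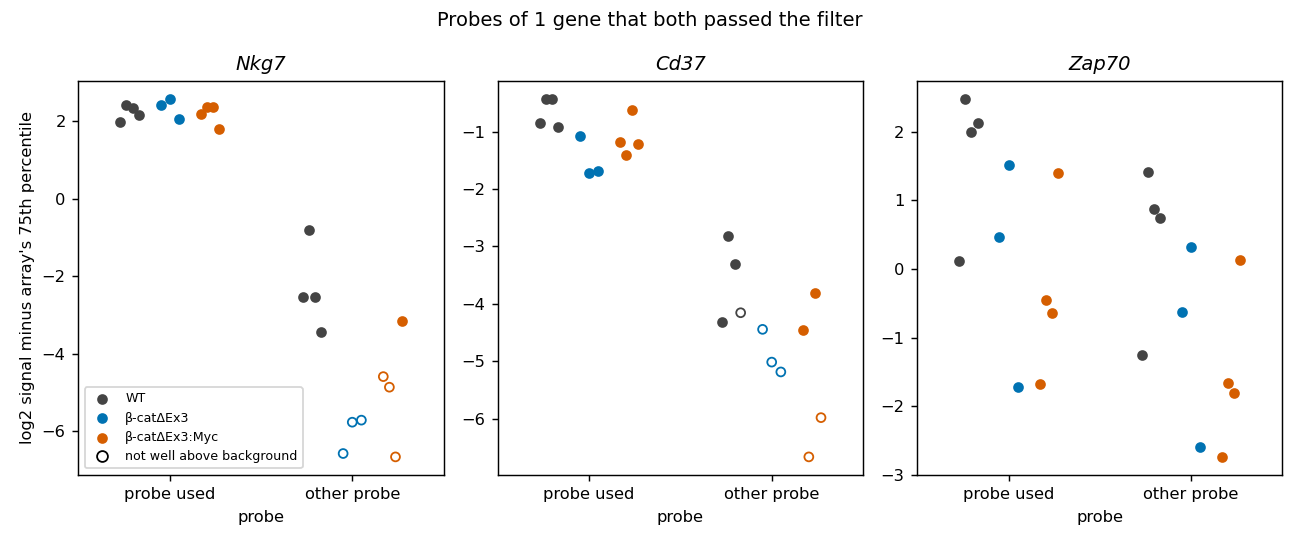
Scaled log2 signal (vertical axis) by array for the 3 lymphocyte genes with 2 kept probes, Nkg7, Cd37 and Zap70, with the used probe and the other probe side by side; open points were not well above background. Both Zap70 probes order the arrays alike, while the used Nkg7 probe stays between 1.79 and 2.57 and its other probe spans -6.67 to -0.81.

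NK receptors, transcription factor and chemokine were low in WT and mostly below detection in the mutants. Il2rb, the interleukin-2 and interleukin-15 receptor beta chain on which NK cells depend, read -2.74, -1.40, -2.36 and -2.72 in WT, -6.54, -5.24 and -6.05 in β-catΔEx3 and -5.24, -5.14, -6.76 and -3.25 in β-catΔEx3:Myc. No β-catΔEx3 array and 1 of 4 β-catΔEx3:Myc arrays, replicate 4, measured it, and the groups did not overlap. It was at least 6.62-fold lower in β-catΔEx3 (adjusted p = 0.00255) and at -2.79 ± 0.64 in β-catΔEx3:Myc (adjusted p = 0.00538). Without β-catΔEx3:Myc replicate 4 the latter was -3.41 (adjusted p = 0.000683), and within slide 4 it was -0.52.

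Klrd1 (CD94), the partner of the NKG2 receptors, read -3.76, -1.59, -2.98 and -4.42 in WT, -6.48, -5.39 and -5.26 in β-catΔEx3 and -4.63, -6.63, -6.20 and -4.43 in β-catΔEx3:Myc. Of these, 3 WT arrays and no mutant array measured it, and the highest mutant array, on slide 4, differed from WT replicate 4 by -0.01. It was at least 3.59-fold lower in β-catΔEx3 (adjusted p = 0.0189) and at least 2.65-fold lower in β-catΔEx3:Myc (adjusted p = 0.0178). The first call was lost without β-catΔEx3 replicate 1 (adjusted p = 0.0780), the second without β-catΔEx3:Myc replicate 2 (adjusted p = 0.0521), and neither passed with the slide block (-0.67 and -0.19).

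Tbx21 (T-bet), a transcription factor of NK cells and T helper type 1 cells, read -4.08, -2.01, -3.54 and -2.78 in WT, -6.29, -5.31 and -5.11 in β-catΔEx3 and -5.03, -5.40, -5.19 and -4.22 in β-catΔEx3:Myc. All WT arrays and no mutant array measured it. It was at least 3.81-fold lower in β-catΔEx3 (adjusted p = 0.00325) and at least 2.84-fold lower in β-catΔEx3:Myc (adjusted p = 0.00761).

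Xcl1 (lymphotactin), a chemokine that NK cells and CD8 T cells secrete, read -3.83, -2.67, -3.50 and -4.57 in WT, -6.46, -6.46 and -6.68 in β-catΔEx3 and -5.62, -5.68, -6.88 and -6.28 in β-catΔEx3:Myc. Here 3 WT arrays and no mutant array measured it, without overlap between WT and either mutant group. It was at least 2.62-fold lower in β-catΔEx3 (adjusted p = 0.000647, and 0.0316 with the slide block) and at least 1.95-fold lower in β-catΔEx3:Myc (adjusted p = 0.000718, and 0.0773 with the block). Ccl5 (RANTES), a chemokine of activated T and NK cells, was not called: it read 1.62, 3.60, 1.91 and 1.02 in WT, -0.21, 0.11 and 0.29 in β-catΔEx3 and -0.15, 1.07, -0.82 and 3.49 in β-catΔEx3:Myc. The β-catΔEx3 arrays were all below WT (-1.98 ± 0.91, adjusted p = 0.113), and β-catΔEx3:Myc replicate 4 came near the highest WT array (-1.14 ± 0.84, adjusted p = 0.303).

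Ptprc (CD45), the phosphatase of all leucocytes, read -1.04, 0.08, -0.78 and -1.28 in WT, -3.61, -2.62 and -2.73 in β-catΔEx3 and -2.24, -3.40, -3.52 and -1.87 in β-catΔEx3:Myc. It was above background on every array and the groups did not overlap. It was 4.70-fold lower in β-catΔEx3 (-2.23 ± 0.47, adjusted p = 0.00427) and 4.01-fold lower in β-catΔEx3:Myc (adjusted p = 0.004). With the slide block the values were -1.26 and -0.78, neither past the test, and within slide 4 they were -1.45 and -0.59.

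The arrays differed within groups in the same way for many members. WT replicate 2 was the highest WT array for 15 of the 18 genes that fell in at least 1 comparison, and WT replicate 4 the lowest for 11. β-catΔEx3:Myc replicate 4 was the highest of its group for 11, and β-catΔEx3 replicate 3 for 11. The median over the 18 genes was -2.05, -1.18, -1.59 and -2.07 in WT, -4.93, -4.39 and -3.94 in β-catΔEx3 and -4.25, -5.01, -4.18 and -2.95 in β-catΔEx3:Myc. The number of the 38 genes above background was 28, 32, 28 and 23 in WT, 16, 15 and 21 in β-catΔEx3 and 18, 17, 18 and 23 in β-catΔEx3:Myc. So the β-catΔEx3:Myc array of slide 4 held as many detected lymphocyte genes as the WT array of that slide.

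Between β-catΔEx3:Myc and β-catΔEx3, no member was called, where 56 of 22282 items were (0.251%), and no member had an unadjusted p under 0.05 (2295 items did). The log2 difference was positive for 22 of the 28 genes, with a median of 0.29 beside 0.01 over all items, and ran from -1.72 (Gzmb) to 1.20 (Cd3g). With the 7 genes at background throughout the lower of the mutant groups set to their bound, or to 0 where no bound can be had, the median was 0.20. The 95% interval of a difference reached from 0.40 to 4.08 log2 units to either side of the estimate, depending on the gene. Within slide 2, 22 differences were positive, and within slide 4, 21.

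Further lymphocyte genes were taken from lists of other genes of the same cells. They passed the same filter, so for those measured in WT alone the direction is in part built in. Of 10 tested of 20 other T cell genes, 6 fell and 2 rose in β-catΔEx3, and 5 fell and 2 rose in β-catΔEx3:Myc, with a median log2 fold change of -1.67 and -1.82. Icos, a costimulatory receptor of activated T cells, fell by 3.49 ± 0.46 and by 3.66 ± 0.43 (adjusted p = 0.000421 and 0.000144). Lcp2 (SLP-76), the adaptor next to LAT, was at least 4.59-fold and at least 3.96-fold lower (adjusted p = 0.000587 and 0.000323). Skap1, another T cell adaptor, was at least 7.16-fold lower in β-catΔEx3 and at -3.25 ± 0.60 in β-catΔEx3:Myc (adjusted p = 0.00381 and 0.00181). With the slide block the Icos calls were lost (adjusted p = 0.0599 and 0.0564), as were those of Skap1 (0.299 and 0.256), while those of Lcp2 stood (0.0228 and 0.0302).

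Themis and Gata3 were the T cell genes of that list that rose. Themis, a protein of developing T cells, was at background on all WT arrays (-6.51, -6.10, -6.42 and -6.24), while the β-catΔEx3 arrays read -1.57, 0.09 and -0.38 and the β-catΔEx3:Myc arrays -3.79, -5.40, -3.65 and -3.24. Its used probe was at least 15.5-fold higher in β-catΔEx3 (adjusted p = 3.83e-05) and at least 1.47-fold higher in β-catΔEx3:Myc (adjusted p = 0.00278), where 3 of 4 arrays measured it. With the slide block the adjusted p was 0.0107 and 0.0978. Gata3, a transcription factor of T helper type 2 cells that other cells also use, rose by 2.25 ± 0.57 (adjusted p = 0.0118) and 1.85 ± 0.53 (adjusted p = 0.017) on the log2 scale, with an adjusted p of 0.0338 and 0.0508 under the slide block.

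B cell genes outside the 38 were lower in nearly every tested case. Of 9 tested of 13 other B cell genes, 8 fell in β-catΔEx3 and 8 in β-catΔEx3:Myc, with a median in β-catΔEx3 of -2.60, or -2.16 with bounds. Bank1, a B cell scaffold protein, was at -3.21 ± 0.46 and -3.20 ± 0.42 (adjusted p = 0.000604 and 0.000283). Fcmr, the IgM Fc receptor, was at -3.10 ± 0.50 in β-catΔEx3 and at least 5.80-fold lower in β-catΔEx3:Myc (adjusted p = 0.00113 and 0.000246). With the slide block 1 of the 9 genes passed in β-catΔEx3 and 2 in β-catΔEx3:Myc. Bank1 passed in neither (adjusted p = 0.0694 and 0.0875), and Fcmr only in β-catΔEx3:Myc (0.124 and 0.0497).

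Dntt, the terminal transferase of early B and T cell precursors, had the largest change among the tested early B cell genes. It read 2.65, 2.93, 3.28 and 0.44 in WT, -2.91, -0.22 and -1.37 in β-catΔEx3 and -1.87, -2.02, -1.65 and -1.18 in β-catΔEx3:Myc, so that all mutant arrays were below all WT arrays and WT replicate 4 was the lowest WT array. Its log2 fold change was -3.82 ± 0.71 (adjusted p = 0.00241) and -4.00 ± 0.66 (adjusted p = 0.000964), and -1.62 and -1.82 with the slide block, which did not pass. Of 4 tested of 9 early B cell genes, 2 fell in each comparison (Dntt and Vpreb1) and 1, Vpreb3, rose in β-catΔEx3:Myc, with a median of -1.08 and -1.06. Rag1, Rag2, Igll1 and Ebf1 were above background on 0 arrays and Vpreb2 on 1, so their change is not known. Of 4 tested of 6 plasma cell genes, 3 fell in each, with a median of -1.74 and -1.60, among them Jchain, which joins polymeric antibodies (-3.20 ± 0.49 and -3.34 ± 0.46, adjusted p = 0.000879 and 0.000338, or 0.0723 and 0.0711 with the slide block). Xbp1, also called in each (-0.76 ± 0.19 and -0.79 ± 0.18), had a WT mean of 7.25, far above the other tested genes of this list. Tnfrsf17 and Prdm1 had no kept probe.

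Of 9 tested of 19 other NK and cytotoxic genes, 6 fell in β-catΔEx3 and 5 in β-catΔEx3:Myc and none rose, with a median of -1.57 and -0.97, or -1.10 and -0.84 with bounds. Tyrobp (DAP12), an adaptor of NK and myeloid cells, was at -2.32 ± 0.49 and -2.51 ± 0.46 (adjusted p = 0.00468 and 0.00163), calls that the slide block ended (-1.16 and -1.22, adjusted p = 0.368 and 0.339). Of 11 tested of 18 chemokines and cytokines that act on lymphocytes, 5 fell and 1 rose in β-catΔEx3, and 6 fell and none rose in β-catΔEx3:Myc, with a median of -1.33 and -1.49. Cxcl13, which draws B cells into follicles, read -3.71, -2.71, -3.45 and -2.58 in WT and -6.55, -6.56 and -6.74 and -6.90, -6.77, -7.04 and -6.37 in the mutants. All WT arrays and no mutant array measured it, and it was at least 3.78-fold and at least 2.82-fold lower (adjusted p = 2.18e-05 and 7.49e-06), calls that stood with the slide block (adjusted p = 0.00575 and 0.00584).

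Cxcl9, which attracts T and NK cells under interferon, was at -4.35 ± 0.92 and -4.00 ± 0.85 (adjusted p = 0.00443 and 0.00366), and neither call stood with the slide block (adjusted p = 0.278 and 0.338). Ccl19, a ligand of CCR7, was at -1.71 ± 0.34 and -2.65 ± 0.31 (adjusted p = 0.00331 and 0.000154), and with the block only the β-catΔEx3:Myc call stood (adjusted p = 0.12 and 0.0216). Il7, the survival cytokine of lymphocytes, was at background on all WT arrays and rose at least 2.08-fold in β-catΔEx3 (adjusted p = 0.0242). That call was lost when WT replicate 1 or 4 or β-catΔEx3 replicate 2 or 3 was left out (adjusted p from 0.0541 to 0.0907), and with the slide block (adjusted p = 0.225).

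Markers of other cells moved too. Of 10 tested of 11 Kupffer cell and macrophage markers, all 10 fell in both groups, with a median of -2.92 and -2.96 and a summed signal, in units of the array's upper quartile, of 244.8 to 374 in WT, 21.5 to 62.8 in β-catΔEx3 and 18.4 to 68.3 in β-catΔEx3:Myc. None of the 10 passed with the slide block. Of 12 tested of 12 leucocyte genes shared by many types, 7 fell in each group, with a median of -1.58 and -1.56. Dendritic cell markers (7 of 8 tested) fell in 4 and 3 cases, with sums of 173.5 to 189.8, 152 to 178.1 and 163 to 209.4, and Cd209a was on no mutant array above background. These sums are chiefly the signal of Siglech, which was not called and had means of 7.47, 7.38 and 7.53. They say little of the other dendritic cell markers. Neutrophil and granulocyte precursor markers (9 of 10 tested) rose in 1 and fell in 1 in β-catΔEx3, and rose in 2 and fell in 1 in β-catΔEx3:Myc, with sums of 8.08 to 12.4 in WT, 5.60 to 13.7 in β-catΔEx3 and 8.74 to 83.3 in β-catΔEx3:Myc.

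Erythroid markers (7 of 9 tested) fell in 3 cases in β-catΔEx3, and fell in 2 and rose in 1 in β-catΔEx3:Myc, with sums of 128.9 to 375 in WT, 26.7 to 35.1 in β-catΔEx3 and 54.0 to 81.1 in β-catΔEx3:Myc. Platelet markers (5 of 5 tested) fell in 2 cases in β-catΔEx3 and rose in 4 in β-catΔEx3:Myc, where the sum was 6.74 to 11.9 against 2.59 to 3.67 in WT and 1.02 to 2.26 in β-catΔEx3. The only mast cell marker tested of 5 rose in β-catΔEx3:Myc. Liver endothelial markers (6 of 6) fell in 4 and 5 cases, with sums of 97.7 to 115.4, 40.5 to 56.0 and 16.8 to 30.8. Hepatocyte markers (5 of 6), on which a liver sample is checked, were all well above background on all arrays and fell in 4 and 3 cases, with sums of 5016 to 6360, 2863 to 3352 and 2454 to 3870, and Alb (albumin) was at -0.19 ± 0.17 and -0.29 ± 0.15 (adjusted p = 0.392 and 0.151). The part of any of these cell types in the lymphocyte genes' values was not tested.

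**Figure D5:**
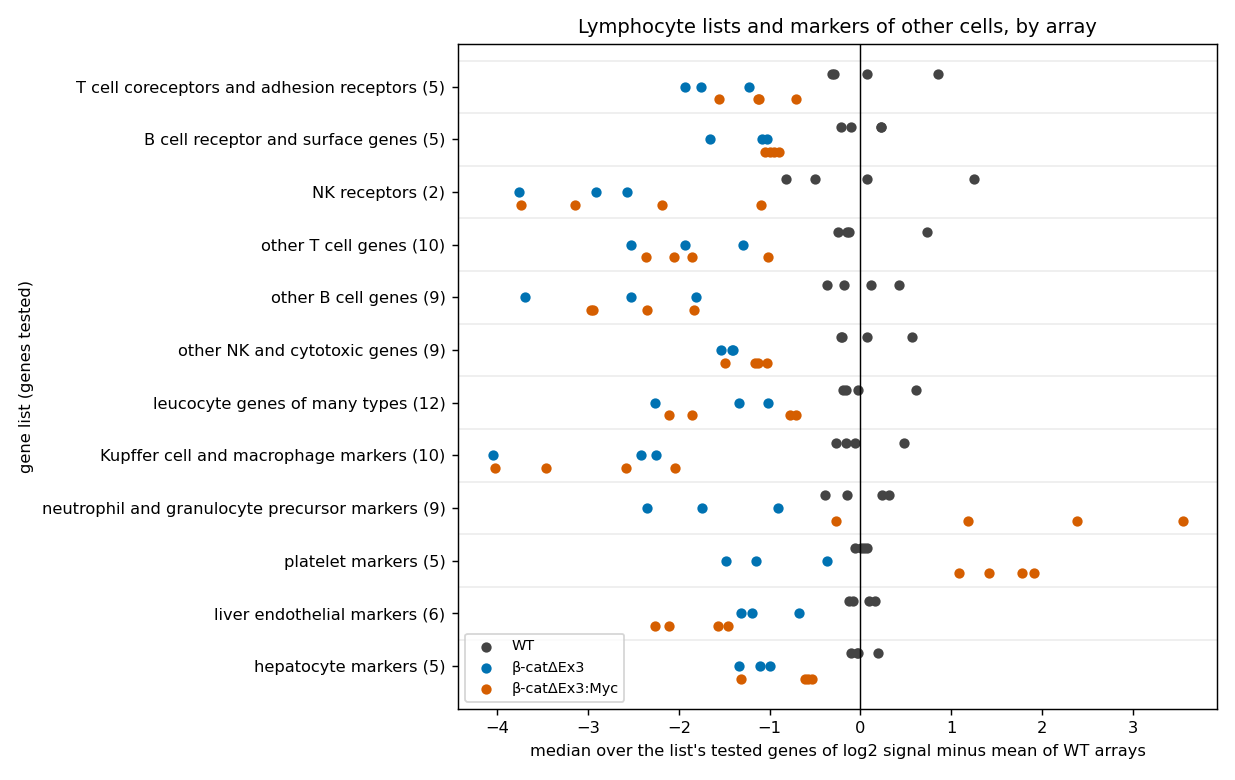
Median over each list's tested genes of the log2 signal minus the mean of the WT arrays (horizontal axis), with a point for each array, for lymphocyte lists and marker lists of other cells. Both mutant groups lie below all WT arrays for the T cell coreceptor, B cell surface and NK receptor lists, the 3 lists of other T, B and NK genes, and the leucocyte, Kupffer cell, endothelial and hepatocyte lists, and the mutant groups part on the neutrophil and platelet lists. Not every list is drawn. Of those left out, the T cell receptor complex, homing receptor and plasma cell lists also lie below all WT arrays. The receptor kinase, cytotoxic granule, NK and T cell chemokine and early B cell lists overlap with WT in a mutant group. The B cell signalling list, in which only Blnk was tested, lies above the WT mean on all mutant arrays.

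All directions above are relative to the scaling. With each array scaled to the 75th percentile of the probes detected on all arrays, the median log2 fold change of all items moved from 0.10 to -0.08 in β-catΔEx3 and from 0.14 to -0.01 in β-catΔEx3:Myc. The calls among the 28 genes were then 0 higher and 17 lower in β-catΔEx3 (in place of 2 and 17), and 1 higher and 17 lower in β-catΔEx3:Myc (in place of 3 and 17). Over all items, 3414 rose and 4662 fell in β-catΔEx3 in place of 4803 and 3463, and 4434 rose and 4741 fell in β-catΔEx3:Myc in place of 5637 and 3814. The lower calls among the lymphocyte genes were thus as many under this scaling, and the higher calls were fewer.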

How the data were processed

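Arrays were scanned and read by the authors in Agilent Feature Extraction 10.7.1.1, per the file headers, and they deposited for each array processed signals in background-subtracted intensity units with flags for each spot. They also deposited a matrix of log2 values, which ranks the spots of each array as the processed signals do. Its median was 4.51 in each column, so the arrays had been brought to a common level, and the method cannot be read from the medians. Build and further steps are not given in the sources used here.

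The 38 members and all other lists were chosen with earlier results of these data known. Control spots and spots flagged as outliers (137 to 209 per array) were left out. Spots of a probe were averaged on the log2 scale, and each array's 75th percentile was subtracted. Of 55681 probes, 26582 matched a RefSeq symbol by accession and 29099 did not; unmatched probes were collapsed by accession. Of 29695 probes above background on at least 3 arrays, the brightest of each gene was used, leaving 22282 items (13963 with a symbol, 8319 without). A limma fit (version 3.58.1, R 4.3.3, files read with data.table, version 1.17.8) of 3 group means over all 11 arrays, by lmFit and eBayes (8 residual and 2.51 prior degrees of freedom), gave 2-sided p-values, adjusted by Benjamini-Hochberg across the items of a comparison, with a threshold of 0.05. The number of arrays limits the precision. The code was tested on simulated data.

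All members are named; those called in a comparison are given on every array, and of other lists up to 3 called genes with the largest change; 1 gene of these lists is not reported here. Protein sequences were not searched, and promoter windows hold the 200 bases before a start. Alternatives covered scaling, the deposited matrix, normexp (offset 50), filters, probe choice, slide as a block or within slide 4 and slide 2, weights, and leaving out each array.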

Additional observations from a re-analysis of the deposited data

Results flagged for a closer look

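Themis was the one gene named here, among the 28 tested members and the other genes given with values, whose mutant groups differed by a test of the difference itself: -3.40 ± 0.50 on the log2 scale in β-catΔEx3:Myc relative to β-catΔEx3 (limma, adjusted p = 0.0262). The 3 β-catΔEx3 arrays (-1.57, 0.09 and -0.38) were all above the 4 β-catΔEx3:Myc arrays (-3.79, -5.40, -3.65 and -3.24). The call stood with slide as a fixed block (adjusted p = 0.0442). It was lost without WT replicate 1 (adjusted p = 0.0564), 2 (0.0531) or 3 (0.0522), which enter only through the shared spread, and without β-catΔEx3 replicate 2 (-3.05, adjusted p = 0.0669) or 3 (-3.28, adjusted p = 0.136). Among 56 groups of 4 arrays of the tested members, no array stood far enough from the other 3 to be named by Dixon's test at the 95% level; groups of 3 were not tested.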

How the results depend on the processing

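Counts of called members moved by over 1.5 times under 2 settings. Requiring 6 arrays above background gave 12 in β-catΔEx3 (main 19) and 12 in β-catΔEx3:Myc (main 20), since 19 members were then tested, and slide as a fixed block gave 3 and 1. Between the mutant groups every setting gave 0 members. Leaving out each array gave 15 to 20 called members in β-catΔEx3 and 14 to 20 in β-catΔEx3:Myc. With every array left out in turn, 14 of 17 lower calls in β-catΔEx3 and 13 of 17 in β-catΔEx3:Myc stood throughout, as did 1 of 3 higher calls in β-catΔEx3:Myc (Prf1) and 0 of 2 in β-catΔEx3.

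Signs reversed in 5 cases where the value had passed the test in the main or the other setting; sign changes of values that passed in neither, such as Ccl5 with the slide block, are not counted. Nkg7 in β-catΔEx3 was -1.78 with the mean of its probes and -3.69 with its most variable probe. In β-catΔEx3:Myc, Cd5 was 0.065 with the slide block, and within slide 4 Blnk was -0.40 and Gzma 0.003. The cause was not tested, except that for Nkg7 the probe itself changes.

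Over all items, the slide block gave 1812 and 1947 calls against WT (main 8266 and 9451). Between the mutant groups (main 56) there were 35 with the detected-probe percentile, 108 when every array of a group had to be above background, 178 with slide as a fixed and 105 as a random block, 21 with array weights, 9 with only the groups compared, and 10 to 180 with an array left out. No paired analysis was possible because the labels give the groups no shared replicate numbers. Low signal limits at least the 9 tested members that were above background on fewer than 3 mutant arrays.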
